A study of Mus musculus with 9 samples.

Results

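The NRF2 pathway was followed here through 10 genes: Nfe2l2, Keap1, Gclc, Gclm, Slc7a11, Txnrd1, Srxn1, Prdx1, Nqo1 and Hmox1. They were chosen by symbol from the 46517 genes of the expression table, and each symbol was found once. The mice were C57BL/6 animals in which mouse pancreatic tumor cells marked with luciferase had been transplanted into the pancreas, referred to as OT mice. On day 27 after transplantation, cells negative for DAPI and for CD3, B220 and NK1.1 and positive for CD45, Ly6G and Ly6C were sorted from bone marrow, blood and tumor. Bone marrow cells were labelled Ly6G.hi, and blood and tumor cells Ly6G+. Every group carried the tumor, so no library came from a mouse without one. Each compartment has 3 libraries, each from cells pooled from 5 mice, and the p-values below measure the spread between such pools. The paper describes 3 independent experiments and compares tumor cells with bone marrow and blood cells of the same mouse. The labels do not say which libraries share mice, and the main test treated the libraries as unpaired.

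NRF2, the protein made from Nfe2l2, is a transcription factor of the cap'n'collar family. KEAP1 binds it in the cytoplasm and hands it to a CUL3 ubiquitin ligase for degradation. Oxidants and electrophiles modify cysteines of KEAP1, and NRF2 then escapes degradation and enters the nucleus. With a small MAF partner it binds antioxidant response elements near genes of glutathione synthesis, the thioredoxin system, quinone reduction and heme breakdown. Neutrophils make large amounts of superoxide with NADPH oxidase, and such enzymes protect the cell itself from its oxidants. NRF2 is regulated largely at the level of the protein, which RNA does not measure.

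The RefSeq promoter windows of mouse genes (build GRCm38.p6, 250 bases before to 50 bases after each start site) hold 8 of the 10 members, in 10 windows; the Hmox1 and Gclc windows were not at hand. The core of the antioxidant response element was searched as TGACNNNGC on both strands, and 5 members carried it in a window: Prdx1, Gclm, Nfe2l2, Txnrd1 and Srxn1. Of all 32851 windows, 12.4% held the core. The core with the letters TGACTCAGC, which also contains the TGACTCA site of AP-1 factors, was in 0.454% of windows and, among the members, in that of Prdx1. The 250 bases before the start site are shown 5′ to 3′ on the gene's strand for the 4 members with a match there, since their changes differ; capitals mark the match, which is on the opposite strand except in Nfe2l2. They lie at chr4:116685349-116685598 (Prdx1, plus strand), chr3:122245307-122245556 (Gclm, plus strand), chr2:75704664-75704913 (Nfe2l2, minus strand) and chr10:82858956-82859205 (Txnrd1, plus strand, the only one of its 3 windows with the core). In Srxn1 the match began 28 bases after the start site, and 30 bases around it are shown, from chr2:152105541-152105570 on the plus strand.
Prdx1: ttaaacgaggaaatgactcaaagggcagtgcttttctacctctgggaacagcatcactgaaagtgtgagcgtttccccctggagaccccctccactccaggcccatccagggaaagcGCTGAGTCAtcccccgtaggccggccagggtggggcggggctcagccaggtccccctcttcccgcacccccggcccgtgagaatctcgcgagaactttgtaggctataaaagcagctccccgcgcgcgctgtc
Gclm: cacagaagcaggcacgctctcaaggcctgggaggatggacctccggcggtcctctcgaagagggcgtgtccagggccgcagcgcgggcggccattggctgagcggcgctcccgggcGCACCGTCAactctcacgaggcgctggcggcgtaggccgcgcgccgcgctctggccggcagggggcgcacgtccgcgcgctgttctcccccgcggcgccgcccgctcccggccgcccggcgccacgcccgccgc
Nfe2l2: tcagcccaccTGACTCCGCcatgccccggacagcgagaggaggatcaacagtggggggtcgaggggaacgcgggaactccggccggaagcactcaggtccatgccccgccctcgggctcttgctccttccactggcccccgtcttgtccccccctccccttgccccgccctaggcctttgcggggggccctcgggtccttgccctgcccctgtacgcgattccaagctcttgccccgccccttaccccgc
Txnrd1: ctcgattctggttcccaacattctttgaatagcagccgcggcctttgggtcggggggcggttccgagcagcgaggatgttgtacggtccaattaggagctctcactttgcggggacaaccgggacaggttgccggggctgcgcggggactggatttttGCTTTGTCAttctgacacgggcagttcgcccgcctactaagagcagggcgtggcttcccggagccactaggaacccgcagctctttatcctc
Srxn1: ggcagtgggcaGCTAGGTCAgagtgagaca
The match began 133 bases before the start site in Prdx1, 134 in Gclm, 92 in Txnrd1 and 240 in Nfe2l2. No match was found in the windows of Keap1, Nqo1 and Slc7a11. These are matches of letters within one window, not measured binding. Before its start site, the Srxn1 window also holds TGAGTCAGC, which the search did not take in because it required TGAC. No window was searched for that form.

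The libraries held 4580807 to 7949367 reads. Values are given as exonic FPKM, the RPM value (reads relative to the library size that the authors scaled) per kilobase of annotated exon, which allows levels of different genes to be set side by side. Differences between compartments are log2 fold changes ± SE from limma on the deposited log2 FPKM values, adjusted over the 7794 genes that passed a filter on low values, with a threshold of 0.05. That filter kept 7 members. Gclc, Nqo1 and Slc7a11 were below it, and their differences are from limma-voom on the recovered reads, adjusted over 17714 genes. The authors' scaling multiplied the reads of tumor libraries by a mean factor of 1.149 ± 0.069 (SD, n = 3) to give the library size, against 0.840 ± 0.043 in bone marrow and 0.841 ± 0.023 in blood. With plain library totals, the median difference of all genes was higher by 0.416 (log2) for tumor against blood and by 0.421 for tumor against bone marrow.

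Markers of other cells moved with the compartments and bear on every tumor value. All 10 neutrophil markers had reads in each compartment, with a summed level of 9905 to 12530 RPM in tumor, against 41790 to 44130 in blood and 59760 to 65480 in bone marrow. The 10 markers of tumor epithelium summed to 2722 to 5170 RPM in tumor, 63.7 to 65.2 in bone marrow, where Cldn4 was at 0, and 49.7 to 236.5 in blood, where replicate 2 was the high library. All 10 fibroblast markers had reads in tumor (1143 to 1291), against 5.98 to 12.6 in bone marrow, with Pdgfra and Postn at 0, and 1.92 to 7.09 in blood, with Lum, Pdgfrb and Postn at 0. The 10 acinar markers summed to 632 to 2335 in tumor and to at most 9.49 elsewhere; Cela3b and Amy2b were at 0 in bone marrow, and Amy2b and Try4 in blood. Immature neutrophil markers, 10 of 10 with reads throughout, summed to 77300 to 87940 in bone marrow, against 1202 to 1589 in blood and 3894 to 7626 in tumor. Macrophage and monocyte markers (10) stood at 450 to 502 in bone marrow, 1494 to 1672 in blood, where Ms4a7 was at 0, and 411 to 585 in tumor. Platelet markers (8) reached 790 to 1089 in blood and at most 14.2 elsewhere, and the 7 red cell markers that were listed reached 292 to 605 in blood and at most 142 elsewhere. Endothelial markers (8) summed to 96.9 to 135 in tumor, 16.0 to 22.7 in bone marrow and 48.8 to 60.2 in blood, where Cdh5 and Tek were at 0, and lymphocyte markers (8) to 4.19 to 10.6 in tumor, where Klrb1c was at 0, and to 34.6 to 167 elsewhere. The part of these cells in the members' differences was not tested. In sorted bulk RNA, fewer cells of a type and less RNA per cell cannot be told apart.

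**Figure D1:**
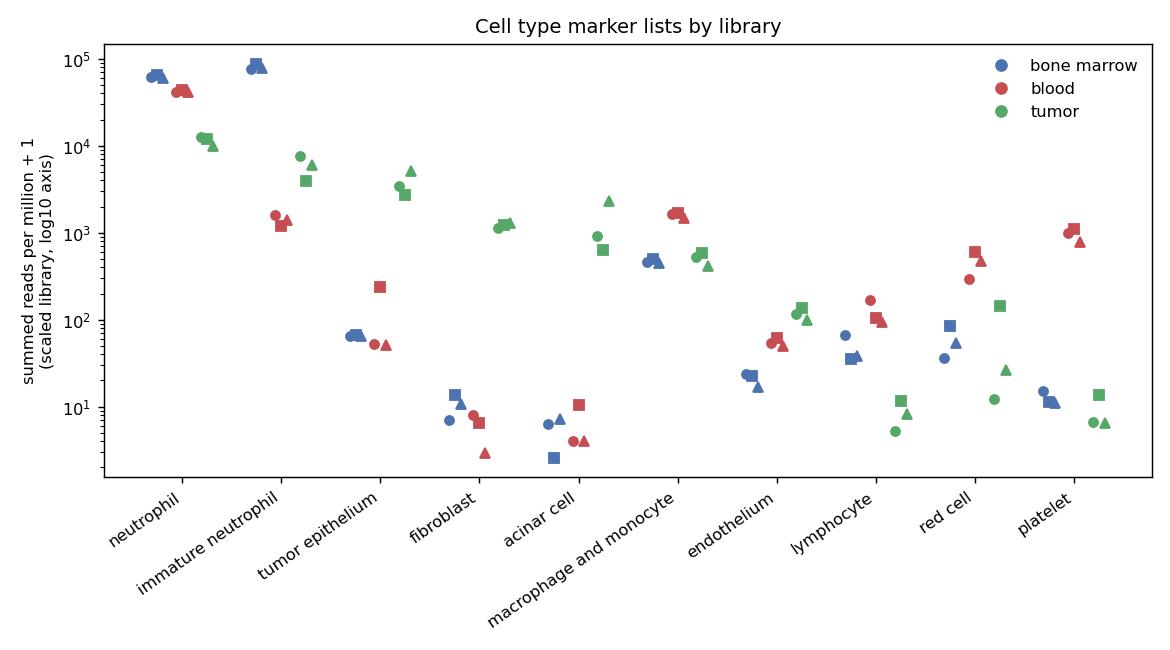
Summed RPM (plus 1, log10 axis) of 10 cell type marker lists in each library, coloured by compartment, with circle, square and triangle for replicates 1, 2 and 3. Epithelial, fibroblast and acinar markers were higher in the 3 tumor libraries than in any other library, and the neutrophil list was lower there.

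Among the tested members, 4 were higher and 0 lower in tumor than in blood, where 28.1% of all genes tested were higher and 34.5% lower. Against bone marrow, 5 were higher and 0 lower in tumor, with 22.4% of all genes higher and 32.9% lower. Between blood and bone marrow the members split, 3 higher and 2 lower in blood, beside 20.6% and 23.6% of all genes. Srxn1, counted as higher than in bone marrow in tumor and in blood, passed the filter through blood and tumor libraries alone. On the recovered reads, where all 10 members could be fitted, 7 were higher and 0 lower in tumor than in blood (33.1% and 21.9% of all genes), 7 and 0 in tumor than in bone marrow (29.3% and 21.0%), and 4 and 3 in blood than in bone marrow (13.8% and 16.4%). With plain library totals, the main test called 5 members higher in tumor than in each of the others and 0 lower, while the split of all genes for tumor against blood moved from 2194 higher and 2686 lower to 2892 and 1916. Against bone marrow it moved from 1745 and 2566 to 2580 and 1654. The comparisons share their libraries and are given side by side, not as separate evidence.

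**Figure D2:**
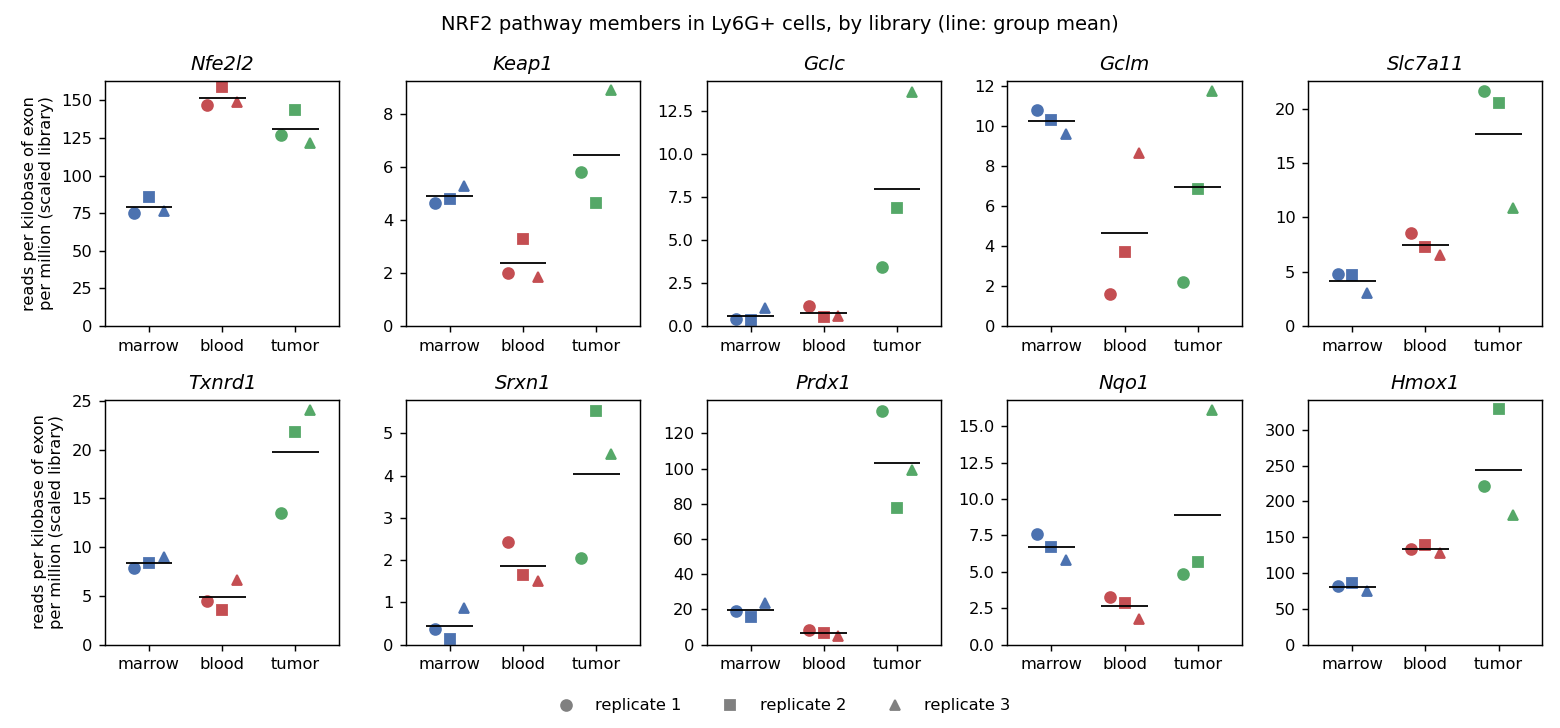
Exonic FPKM of the 10 members in each of the 9 libraries, 1 panel per gene with its own axis from 0; symbols mark replicates and the line the mean of 3. Nfe2l2 was at its lowest in bone marrow, Prdx1 stood at 77.9 to 133 in tumor, and Gclm was spread over overlapping ranges in blood and tumor.

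The regulator pair moved in different directions between bone marrow and blood. Nfe2l2 (chromosome 2, 75675513 to 75704641, minus strand, GRCm38), which encodes NRF2, stood at 75.4, 86.1 and 76.2 exonic FPKM in the bone marrow replicates, 147, 159 and 149 in blood and 127, 144 and 122 in tumor. Replicates lay close together, and bone marrow lay below both other compartments without overlap. Nfe2l2 was higher than in bone marrow by 0.94 ± 0.09 log2 units (SE) in blood (limma, adjusted p = 0.000199) and by 0.72 ± 0.09 log2 units in tumor (adjusted p = 0.000373). Tumor against blood gave a log2 difference of -0.21 ± 0.09 (adjusted p = 0.0794), which turned to 0.24 with plain library totals (adjusted p = 0.0149) and to 0.19 with quantile normalization (adjusted p = 0.0585), so no direction between these compartments is given. Without tumor replicate 2 it was -0.28 log2 units and passed the test (limma, adjusted p = 0.0309). The 3 genes whose log2 FPKM was most like that of Nfe2l2 over the 9 libraries, out of 7794, were Entpd3, which encodes an ectonucleotidase (Pearson r = 0.988), Ccdc80 (0.985) and Tnfrsf1b, the gene of TNF receptor 2 (0.983). These correlations describe 9 libraries that fall into 3 compartments. For example, the log2 FPKM of Tnfrsf1b averaged 2.71 ± 0.08 (SD, n = 3) over the bone marrow libraries, against 4.81 ± 0.05 in blood and 4.45 ± 0.22 in tumor.

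Keap1 (chromosome 9, 21229730 to 21239361, minus strand), the adaptor that sends NRF2 to degradation, was low in every library. Its exonic FPKM was 4.65, 4.78 and 5.30 in bone marrow, 2.00, 3.28 and 1.86 in blood and 5.84, 4.65 and 8.91 in tumor. Blood was the low compartment, while tumor and bone marrow overlapped. Keap1 was higher in tumor than in blood by 1.43 ± 0.29 log2 units (limma, adjusted p = 0.00323) and lower in blood than in bone marrow, with a log2 difference of -1.09 ± 0.29 (adjusted p = 0.0186). The latter call was lost without bone marrow replicate 3, blood replicate 1 or blood replicate 3, with adjusted p of 0.0598, 0.0573 and 0.0601. It was also lost with limma-voom on plain library totals. With 1 library left out, limma-voom made the call in 4 of 9 fits, with adjusted p from 0.00919 to 0.126. Tumor against bone marrow gave 0.35 ± 0.29 log2 units (adjusted p = 0.353), and 0.79 with limma-voom on plain library totals (adjusted p = 0.0299). An antisense gene, Gm16754, shares 510 exonic bases with Keap1 and had 23 to 110 reads in tumor and at most 8 elsewhere; without strand, reads of the shared stretch cannot be told apart.

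The ratio of Nfe2l2 to Keap1 within a library does not depend on the library size. It was 16.2, 18.0 and 14.4 in bone marrow, 73.6, 48.4 and 79.8 in blood and 21.8, 30.9 and 13.7 in tumor. Every blood library had more Nfe2l2 per Keap1 than any library of the other compartments, while tumor and bone marrow overlapped. The geometric mean ratio in blood was 4.08-fold that in bone marrow and 3.14-fold that in tumor, each with an exact permutation p = 0.1 (two-sided), the smallest that 3 against 3 can give. Tumor against bone marrow was 1.30-fold (exact permutation p = 0.4). These ratios were formed after the values were seen.

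**Figure D3:**
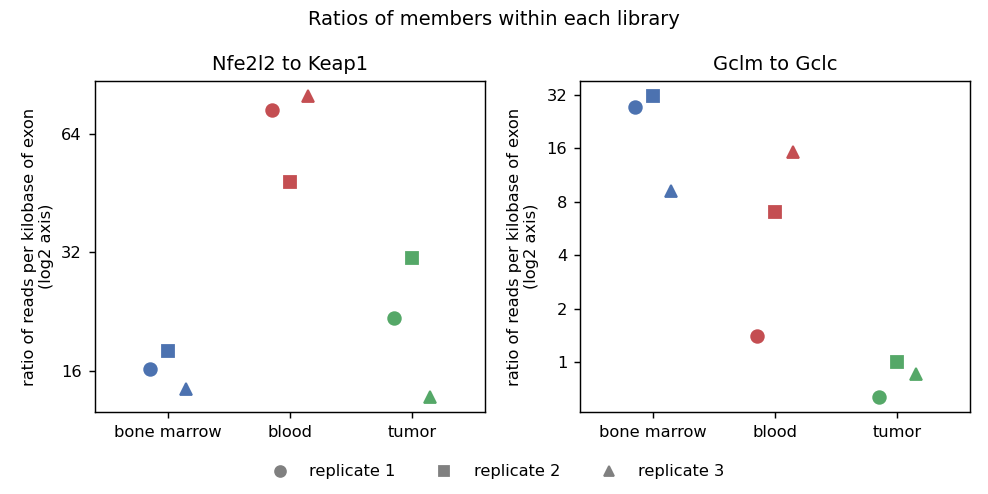
Ratio of exonic FPKM within each library (log2 axis) of Nfe2l2 to Keap1 (left) and of Gclm to Gclc (right) by compartment, with a symbol per replicate. The 3 blood libraries had the highest Nfe2l2 to Keap1 ratios, 48.4 to 79.8, and the 3 tumor libraries the lowest Gclm to Gclc ratios, 0.636 to 1.00.

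The genes of glutathione synthesis behaved unequally. Gclc (chromosome 9, 77754535 to 77794485, plus strand) encodes the catalytic subunit of glutamate-cysteine ligase, the rate-limiting enzyme of glutathione synthesis. It had 10, 7 and 26 reads in bone marrow, 17, 11 and 10 in blood and 80, 195 and 406 in tumor, or 0.397, 0.329 and 1.04, then 1.14, 0.523 and 0.566, then 3.42, 6.85 and 13.6 exonic FPKM. All tumor libraries lay above the rest. Gclc was higher in tumor by 3.33 ± 0.76 log2 units against blood (limma-voom, adjusted p = 0.002) and by 3.70 ± 0.76 log2 units against bone marrow (adjusted p = 0.00105), and both calls held whichever library was left out. Blood and bone marrow overlapped, with a log2 difference of 0.37 ± 1.01 (limma-voom, adjusted p = 0.818).

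Gclm (chromosome 3, 122245557 to 122270732, plus strand) encodes the modifier subunit of the same enzyme. Exonic FPKM was 10.8, 10.3 and 9.60 in bone marrow, 1.61, 3.67 and 8.65 in blood and 2.18, 6.85 and 11.7 in tumor. Bone marrow replicates agreed closely, with an SD of 0.084 on the log2 scale. In blood and tumor the SD was 1.21 and 1.24, above that of 88.5% and 90.8% of the genes tested in the same compartment. Blood and tumor overlapped, and no comparison passed the test (limma, adjusted p = 0.507 for tumor against blood, 0.349 for tumor against bone marrow and 0.143 for blood against bone marrow). The log2 differences were 0.59 ± 0.73, -0.87 ± 0.73 and -1.46 ± 0.73. Tumor against blood was -0.01 log2 units without blood replicate 1 (limma, adjusted p = 0.995). Without tumor replicate 1, the lowest tumor library, limma-voom gave 1.22 ± 0.44 log2 units for tumor against blood (adjusted p = 0.0332). For tumor against bone marrow it gave -1.34 ± 0.48 log2 units without tumor replicate 3 (adjusted p = 0.0345), and blood against bone marrow passed without tumor replicate 1, tumor replicate 3 or blood replicate 3 (limma-voom, adjusted p = 0.0208, 0.0335 and 0.0373). Within a library, the ratio of Gclm to Gclc was 27.1, 31.4 and 9.23 in bone marrow, 1.41, 7.02 and 15.3 in blood and 0.636, 1.00 and 0.864 in tumor. Transcripts of Gclm thus exceeded those of Gclc in all bone marrow and blood libraries, and both stood at similar levels in tumor. The geometric mean ratio in bone marrow was 24.3-fold, and in blood 6.50-fold, that in tumor (exact permutation p = 0.1 for each, the smallest possible), and bone marrow and blood overlapped (exact permutation p = 0.2). With 7 to 26 Gclc reads per library, the ratios outside tumor carry a large counting error.

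Slc7a11 (chromosome 3, 49892526 to 50443614, minus strand) encodes xCT, which exchanges glutamate for the cystine from which glutathione is made. Its exonic FPKM was 4.79, 4.67 and 3.08 in bone marrow, 8.54, 7.31 and 6.54 in blood and 21.6, 20.6 and 10.9 in tumor. The compartments were ordered without overlap, with tumor replicate 3 the lowest of its group. Slc7a11 was higher in tumor than in blood by 1.18 ± 0.26 log2 units (limma-voom, adjusted p = 0.00137) and than in bone marrow by 2.04 ± 0.27 log2 units (adjusted p = 2.4e-05). Blood against bone marrow gave 0.85 ± 0.30 log2 units (limma-voom, adjusted p = 0.0421), a call that was lost when any 1 of the bone marrow or blood libraries was left out, with adjusted p between 0.0527 and 0.177. The gene had 285 to 2167 reads per library and missed the filter because its deposited FPKM is per base of a genomic span of 551089 bases. A stretch of 373 bases in its longest transcript is 95.4% to 96.2% identical to transcripts of the tubulin genes Tuba1a, Tuba1b and Tuba1c, and reads that fall there are uncertain.

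The thioredoxin system held the largest change of any member. Prdx1 (chromosome 4, 116685544 to 116700822, plus strand), a peroxiredoxin that reduces hydrogen peroxide and whose promoter window carries TGACTCAGC, was at 19.2, 15.9 and 23.5 exonic FPKM in bone marrow, 8.40, 6.36 and 4.63 in blood and 133, 77.9 and 99.5 in tumor. The 3 compartments were separate, with blood lowest. Prdx1 was higher in tumor than in blood by 4.01 ± 0.28 log2 units (limma, adjusted p = 1.4e-05) and than in bone marrow by 2.39 ± 0.28 log2 units (adjusted p = 0.000211), and it was lower in blood than in bone marrow, with a log2 difference of -1.62 ± 0.28 (adjusted p = 0.00252). In RPM, the tumor mean was 16.0 times the blood mean and 5.31 times the bone marrow mean. Gm21399 and Gm7204, which are 98.3% and 97.5% identical to Prdx1 over 597 bases, had at most 11 reads in any library.

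Txnrd1 (chromosome 10, 82833951 to 82897712, plus strand), the cytosolic thioredoxin reductase, which uses NADPH to recharge thioredoxin, was at 7.81, 8.36 and 8.95 exonic FPKM in bone marrow, 4.50, 3.51 and 6.59 in blood and 13.5, 21.8 and 24.1 in tumor. It was higher in tumor by 2.03 ± 0.29 log2 units against blood (limma, adjusted p = 0.000519) and by 1.20 ± 0.29 log2 units against bone marrow (adjusted p = 0.00898). Blood lay below bone marrow in all libraries, but the log2 difference of -0.83 ± 0.29 did not pass the test (limma, adjusted p = 0.051). It did with limma, without blood replicate 3 (-1.07, adjusted p = 0.0234) or tumor replicate 1 (-0.83, adjusted p = 0.0319), and with limma-voom (adjusted p = 0.0395). The limma-voom call held in 4 of 9 fits with 1 library left out, with adjusted p from 0.0112 to 0.208.

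Srxn1 (chromosome 2, 152105516 to 152111376, plus strand) encodes sulfiredoxin, which repairs overoxidized peroxiredoxins such as PRDX1. It was rare in bone marrow, with 7, 2 and 16 reads, and had 27, 26 and 20 reads in blood and 36, 118 and 101 in tumor. As exonic FPKM these were 0.371, 0.125 and 0.854, then 2.42, 1.65 and 1.51, then 2.06, 5.53 and 4.51. Bone marrow lay below all other libraries, and tumor replicate 1 lay within the range of blood. Srxn1 was higher than in bone marrow by 3.38 ± 0.67 log2 units in tumor (limma, adjusted p = 0.0035) and by 2.36 ± 0.67 log2 units in blood (adjusted p = 0.0236). Its log2 FPKM exceeded 0 only in blood replicate 1 (0.23) and tumor replicates 2 and 3 (1.42 and 1.12). It thus passed the filter without any bone marrow library, and both calls lean towards blood and tumor. The blood call was lost without bone marrow replicate 1, blood replicate 1 or blood replicate 2, with adjusted p of 0.0568, 0.0698 and 0.0538, and with a pseudocount of 1 it was 0.64 (adjusted p = 0.0518). With 1 library left out, limma-voom made this call in 4 of 9 fits, with adjusted p from 0.0152 to 0.145. Tumor against blood gave 1.02 ± 0.67 log2 units (adjusted p = 0.219), and 1.54 with limma-voom on plain library totals (adjusted p = 0.0181). It also passed with limma-voom without tumor replicate 1 (1.45 log2 units, adjusted p = 0.00857).

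Nqo1 (chromosome 8, 107388225 to 107403206, minus strand), which reduces quinones without a radical intermediate, is often used as a readout of NRF2. Its exonic FPKM was 7.61, 6.72 and 5.82 in bone marrow, 3.26, 2.88 and 1.79 in blood and 4.88, 5.71 and 16.1 in tumor. Blood was the low compartment, and the tumor libraries fell on both sides of those from bone marrow, replicate 3 being far above replicates 1 and 2. Nqo1 was higher in tumor than in blood by 1.60 ± 0.56 log2 units (limma-voom, adjusted p = 0.0255), and tumor against bone marrow gave 0.24 ± 0.40 log2 units (adjusted p = 0.641). The tumor against blood call was lost without blood replicate 2 (1.70, adjusted p = 0.0652) or blood replicate 3 (1.36, adjusted p = 0.0926). The estimate fell to 1.03 without tumor replicate 3, where it still passed (limma-voom, adjusted p = 0.0375). Blood against bone marrow gave -1.36 ± 0.57 log2 units (limma-voom, adjusted p = 0.0917) and passed without tumor replicate 3 (-1.36 ± 0.35 log2 units, adjusted p = 0.0101).

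Hmox1 (chromosome 8, 75093621 to 75100589, plus strand), the inducible heme oxygenase, which opens the heme ring and releases iron, was among the most abundant members everywhere. It stood at 81.3, 85.4 and 74.9 exonic FPKM in bone marrow, 133, 139 and 128 in blood and 222, 330 and 181 in tumor. The compartments were ordered bone marrow, blood, tumor without overlap. Hmox1 was higher in tumor than in blood by 0.83 ± 0.20 log2 units (limma, adjusted p = 0.00698), in tumor than in bone marrow by 1.56 ± 0.20 log2 units (adjusted p = 0.000334) and in blood than in bone marrow by 0.73 ± 0.20 log2 units (adjusted p = 0.0189). The last call was lost without bone marrow replicate 1, bone marrow replicate 3 or blood replicate 2, with adjusted p of 0.0511, 0.0629 and 0.0566.

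**Figure D4:**
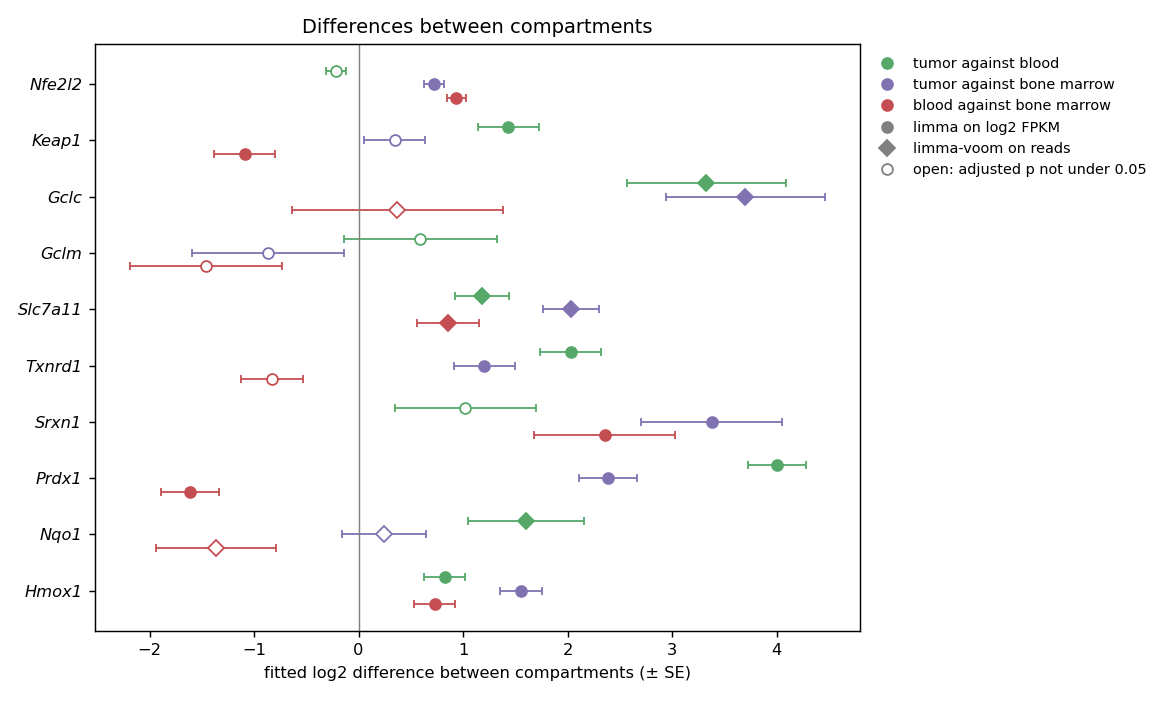
Fitted log2 differences between compartments for the 10 members (points, with SE bars), from limma on log2 FPKM (circles) or, for Gclc, Slc7a11 and Nqo1, limma-voom on recovered reads (diamonds); filled symbols had an adjusted p under 0.05. Prdx1 had the largest tumor against blood difference, 4.01, and Gclm had open symbols throughout; the place of Nfe2l2 in tumor against blood, -0.21, turns positive with plain library totals or quantile normalization.

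Set side by side by exonic FPKM, Hmox1 and Nfe2l2 led in bone marrow (80.5 ± 5.28 and 79.2 ± 5.97, SD, n = 3), where their ranges overlapped, and in blood Nfe2l2 (151 ± 6.38) lay above Hmox1 (133 ± 5.55). In tumor the order was Hmox1 (244 ± 77.1), Nfe2l2 (131 ± 11.5) and Prdx1 (103 ± 27.7), and the ranges of the latter 2 overlapped. Every other member stayed at or below 24.1 exonic FPKM in every library. The rarest were Srxn1 (0.450 ± 0.371) and Gclc (0.589 ± 0.392) in bone marrow, which overlapped, Gclc (0.744 ± 0.346) in blood and, in tumor, Srxn1 (4.03 ± 1.79), whose range overlapped those of Keap1, Gclm, Gclc and Nqo1. The exonic length of Slc7a11, 13922 bases with all its annotated transcripts, lowers its place in this order. Txnrd1 was deposited with a length of 38519 bases, against a span of 63762 in GENCODE M21. Its exonic length here, 7086 bases, may therefore not match the exons that were counted.

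Tumor replicate 3, the library with the highest epithelial (5170 RPM) and acinar (2335) marker levels, was also the highest tumor library for Keap1, Gclc, Gclm, Txnrd1 and Nqo1. It was the lowest for Nfe2l2, Hmox1 and Slc7a11 and in between for Prdx1 and Srxn1. The part of epithelial or acinar RNA in these values was not tested. Blood replicate 2, with epithelial markers at 236.5 RPM against 51.1 and 49.7 in replicates 1 and 3, was the highest blood library for Keap1, Nfe2l2 and Hmox1, the lowest for Gclc and Txnrd1, and in between for Gclm, Slc7a11, Srxn1, Prdx1 and Nqo1. The part of epithelial RNA in these blood values was not tested either.

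Beyond the members, 8 lists of NRF2 regulators, antioxidant enzymes and enzymes of NADPH supply held 93 genes, members included, of which 63 passed the filter. Of these, 35 were higher and 19 lower in tumor than in blood (median log2 difference 0.71, against -0.17 for all genes tested), and 30 were higher and 21 lower in tumor than in bone marrow (0.45 against -0.21). In blood against bone marrow, 13 were higher and 27 lower (-0.53 against -0.04). Of all genes tested, 28.1% were higher and 34.5% lower in tumor than in blood. In tumor against bone marrow these shares were 22.4% and 32.9%, and in blood against bone marrow 20.6% and 23.6%. The counts of each list below are to be read beside these shares. Of the 63, 6 passed the filter through tumor libraries alone (Akr1b8, Aldh3a1, Gpx8, Gss, Gsta4 and Maff), and 8 through tumor and 1 other compartment. Through these genes, the counts of pathway genes lean towards tumor. Genes that passed without any tumor library, such as Me2 of the NADPH-supply list, lean the other way and were not counted. With plain library totals, 39 pathway genes were higher and 12 lower in tumor than in blood, beside 2892 and 1916 of the 7794 genes tested. On recovered reads all 93 were fitted, with 58 higher and 20 lower in tumor than in blood (33.1% and 21.9% of all genes). In tumor against bone marrow, 51 were higher and 21 lower (29.3% and 21.0%). A gene entered this fit with 5 or more reads in any 1 library, so genes with reads almost only in tumor are in it. Counts of pathway genes on recovered reads, here and for the lists below, thus lean towards tumor as well.

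**Figure D5:**
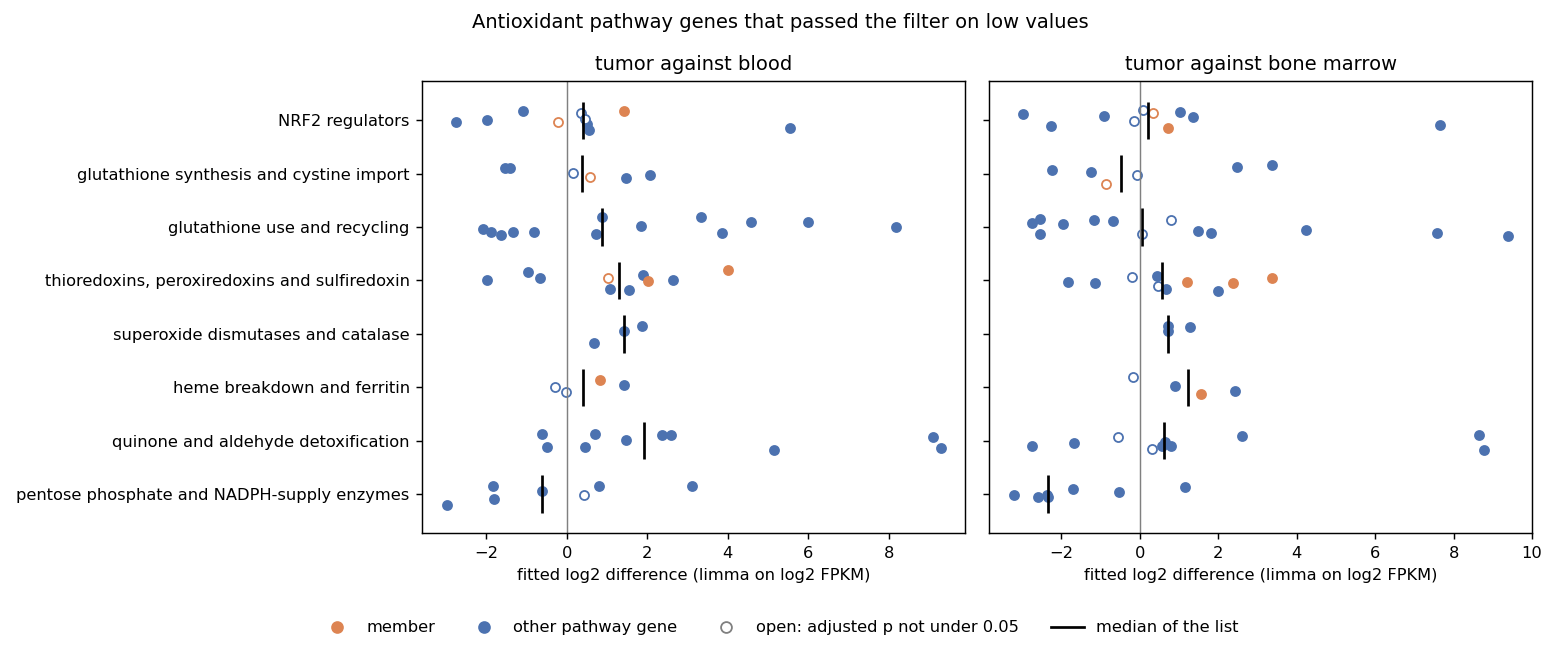
Log2 differences (limma on log2 FPKM) of the antioxidant pathway genes that passed the filter, by list, for tumor against blood (left) and tumor against bone marrow (right); orange points are members, filled points had an adjusted p under 0.05 and black bars are list medians. The median of the pentose phosphate and NADPH-supply enzymes was -0.61 and -2.35, while that of superoxide dismutases and catalase was 1.42 and 0.73. Without Tkt and Taldo1, which make no NADPH themselves, the former was 0.43 and -1.69, the values of Me2.

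Of the NRF2 regulators, 10 of 12 were tested, and 4 were higher and 3 lower in tumor in either comparison (7 and 3 against blood with plain library totals). Maff, a small MAF protein and possible partner of NRF2, had 105 to 156 reads in tumor and at most 6 in any other library. Nfe2, the p45 relative of NRF2 that is known from blood cell formation, was lower in tumor than in blood, with a log2 difference of -2.74 ± 0.12 (limma, adjusted p = 2.65e-06), and than in bone marrow (-2.97 ± 0.12, adjusted p = 2.45e-06).

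In the list for glutathione synthesis and cystine import, 6 of 9 were tested, with 2 higher and 2 lower in tumor in either comparison (2 and 1 with plain library totals). On recovered reads, which take in Gclc and Slc7a11, 5 of the 9 were higher and 2 lower in either comparison. Slc3a2, the heavy chain that carries xCT to the membrane, was higher in tumor by 2.07 ± 0.17 log2 units against blood (limma, adjusted p = 2.61e-05) and by 2.48 ± 0.17 log2 units against bone marrow (adjusted p = 1.33e-05). Chac1, which degrades glutathione, was lower in tumor than in blood (-1.54 ± 0.20, adjusted p = 0.000305) and higher in blood than in bone marrow (1.47 ± 0.20, adjusted p = 0.000823). Of the genes that use or recycle glutathione, 13 of 25 were tested, 8 higher and 5 lower in tumor than in blood, and 5 and 6 in tumor than in bone marrow. On recovered reads, with all 25 genes fitted, 17 were higher and 6 lower in tumor than in blood, and 15 and 6 in tumor than in bone marrow. The glutathione transferase gene Gsta4 had 363 to 663 reads in tumor and at most 5 elsewhere. Gpx1, the abundant glutathione peroxidase, was lower in tumor than in blood by limma (-2.09 ± 0.16, adjusted p = 2.38e-05) and than in bone marrow (-1.95 ± 0.16, adjusted p = 3.8e-05).

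Among thioredoxins, peroxiredoxins and sulfiredoxin, 10 of 13 were tested, 6 higher and 3 lower in tumor than in blood (6 and 1 with plain library totals), and 6 and 2 in tumor than in bone marrow. Prdx2, a close relative of Prdx1, was higher in tumor than in blood by 2.65 ± 0.23 log2 units (limma, adjusted p = 3.62e-05), and Txnip, which binds and blocks thioredoxin, was lower (-1.97 ± 0.14, adjusted p = 1.32e-05). Blood was the high compartment for Txnip, at 1.77 ± 0.14 against bone marrow (limma, adjusted p = 5.73e-05), and tumor against bone marrow gave -0.20 ± 0.14 (adjusted p = 0.246). All 3 tested genes of the 5 superoxide dismutases and catalase were higher in tumor in both comparisons. Against blood, mitochondrial Sod2 differed by 1.88 ± 0.22 log2 units (limma, adjusted p = 0.000163) and Cat by 0.68 ± 0.21 log2 units (adjusted p = 0.0217).

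In the list of heme breakdown and ferritin, which holds Hmox1, 4 of 6 genes were tested, with 2 higher and 0 lower in tumor than in blood, and 3 and 0 in tumor than in bone marrow. Fth1, the ferritin heavy chain that stores iron, rose in the same order as Hmox1, with 9181 to 11293 reads per bone marrow library, 13162 to 18027 per blood library and 46348 to 77334 per tumor library. Its log2 difference was 1.42 ± 0.24 for tumor against blood (limma, adjusted p = 0.00125) and 1.01 ± 0.24 for blood against bone marrow (adjusted p = 0.0114). In the list of quinone and aldehyde detoxification, 10 of 15 genes were tested, with 8 higher and 2 lower in tumor than in blood (8 and 0 with plain library totals), and 6 and 2 in tumor than in bone marrow. Of these 10, 2 (Akr1b8 and Aldh3a1) passed the filter through tumor alone and 4 through tumor and 1 other compartment, so the counts lean towards tumor. Akr1b8, an aldo-keto reductase gene, had 210 to 460 reads in tumor and at most 4 elsewhere. Aldh2, the mitochondrial aldehyde dehydrogenase, was lower in blood (-2.13 ± 0.17, limma, adjusted p = 7.62e-05) and in tumor (-2.74 ± 0.17, adjusted p = 9.8e-06) than in bone marrow.

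TXNRD1 depends on NADPH, which NQO1 can also use. Of 8 enzymes of the pentose phosphate pathway and of NADPH supply, 7 were tested, 2 higher and 4 lower in tumor than in blood, and 1 higher and 6 lower in tumor than in bone marrow, with medians of -0.61 and -2.35. With plain library totals these counts were 3 and 3, and 1 and 5. Tkt and Taldo1 make no NADPH themselves, and without them 2 of 5 were higher and 2 lower in tumor than in blood (median 0.43), and 1 higher and 4 lower in tumor than in bone marrow (median -1.69). The untested gene was Me1, the cytosolic malic enzyme that makes NADPH, named here after its values were seen, with 283 to 638 reads in tumor and at most 1 elsewhere. With it, limma-voom called 3 of the 8 higher and 4 lower in tumor than in blood. Taldo1, transaldolase of the pentose phosphate pathway, was lower in tumor than in blood by limma (-2.97 ± 0.13, adjusted p = 2.65e-06) and than in bone marrow (-2.37 ± 0.13, adjusted p = 6.02e-06). Idh2, the mitochondrial NADP-dependent isocitrate dehydrogenase, was higher in tumor than in blood by 3.12 ± 0.36 log2 units (limma, adjusted p = 0.000176) and lower in blood than in bone marrow (-1.96 ± 0.36, adjusted p = 0.00358). It passed the filter without any blood library (mean log2 FPKM -1.52 in blood), so both calls lean towards tumor and bone marrow.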

How the data were processed

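RNA was sequenced from sorted Ly6G+ cells in 9 libraries, 3 per compartment, each a pool of 5 mice. Per the methods and the submitters' notes, the authors made libraries with SMARTSeq v2, mapped reads with STAR 2.5.2b to GRCm38, counted them with featureCounts 1.5.0 and used edgeR 3.8.6. The authors deposited log2 FPKM for 46517 genes, with scaled library sizes and, for 39046 of the 46005 genes found in GENCODE M21, the genomic span as length. Whole reads were recovered from the steps between values for all genes (tolerance 0.01 reads).

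The main test was run with limma 3.58.1 (R 4.3.3) on the genes whose log2 FPKM exceeded 0 in 3 or more libraries (moderated test with intensity trend, 1 coefficient per compartment, Benjamini-Hochberg, two-sided); limma-voom on recovered reads used genes with 5 or more reads in some library. Scripts were tested on simulated data. Exact permutation tests compared single values. The members and gene lists were chosen with earlier results of these data known. The text names all members and, of each list, the called genes outside the members with the largest and smallest tumor against blood difference. Alternatives covered filter, pseudocount, normalization, test, replicate block and each library left out. The limma-voom fits with each library left out were added after the data were seen. Exonic lengths and positions are from GENCODE M21 on GRCm38, and promoters from RefSeq. Depth was 4580807 to 7949367 reads.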

Additional observations from a re-analysis of the deposited data

How the results depend on the processing

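Of 429 alternative values for the 7 tested members over the 3 comparisons, 401 kept direction and side of the threshold, 15 lost the call, 9 gained one and 4 turned direction. Comparisons that were not called and stayed so count as kept. Some alternatives, such as the filters, can change the adjusted p but not the log2 difference, so the count of kept values overstates the agreement. For tumor against blood, Nfe2l2 became 0.24 with plain library totals, under limma (adjusted p = 0.0149) and limma-voom (adjusted p = 0.0274), and 0.19 with quantile normalization (adjusted p = 0.0585), and Gclm, which ranged from -0.0102 to 1.27 over the libraries left out, turned without blood replicate 1 (adjusted p = 0.995). Plain totals move every tumor value up by construction; for the rest the cause was not tested. Counts of members called moved for tumor against blood to 7 of 10 with no filter, beside 5534 genes higher and 3429 lower of 23861. With the stricter filter (log2 FPKM over 2) 2 of 3 members were called, beside 918 and 1644 of 3514 genes. With limma-voom 7 of 10 members were called, beside 5871 and 3888 of 17714 genes. With limma-voom on plain library totals (added after seeing the data) 9 of 10 were called, beside 7304 and 2643 of 17714. For tumor against bone marrow the members called moved to 3 of 3 with the stricter filter, beside 849 genes higher and 1529 lower of 3514. With limma-voom on plain totals they moved to 8 of 10, beside 6939 and 2384 of 17714 genes. For blood against bone marrow they moved to 3 of 3 with the stricter filter, beside 1036 and 888 of 3514 genes. When a called gene also had to differ by 1 or more on the log2 scale, they moved to 3 of 7, beside 968 and 1208 of 7794 genes. Leaving out single libraries gave 4 to 5, 5 to 5 and 3 to 6 members for the 3 comparisons in that order, 4525 to 4773, 3743 to 4295 and 2742 to 3581 genes, and 49 to 54, 45 to 51 and 32 to 41 pathway genes. All genes called moved, for tumor against blood, from 4880 to 8963, 2562, 9759 and 9947 (no filter, stricter filter, limma-voom, limma-voom on plain totals), for tumor against bone marrow from 4311 to 7351, 2378, 8914 and 9323, and for blood against bone marrow from 3446 to 1924, 5361 and 5255 (the last 3), and to 2176 with the fold limit. Pathway genes called in blood against bone marrow were 26 with the fold limit, against 40. The filters and the fold limit change how many genes can be called; for the other counts the cause was not tested.

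Replicate numbers are shared by the compartments, and whether a number marks 1 pool of mice is not given. Deviations of same-numbered libraries correlated at -0.071 to 0.108, with 1 of 9 pairs over 0.1, and not every library correlated best with its own number. The main test did not use the numbers. Low correlations cannot show that the pools were unpaired. With the number as a replicate block, 5, 5 and 6 members were called for tumor against blood, tumor against bone marrow and blood against bone marrow; Nfe2l2 was then called lower in tumor than in blood (adjusted p = 0.0350) and Txnrd1 lower in blood than in bone marrow (adjusted p = 0.0416), and all genes called were 4851, 4241 and 3383. Depth limits Gclc, Srxn1 and Nqo1, which had as few as 7, 2 and 13 reads in a library.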
